A study of Caenorhabditis elegans with 4 samples.

Results

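The nematode Caenorhabditis elegans has no adaptive immune system, and lysozymes, saposin-like proteins and small antimicrobial peptides are among the products with which its tissues meet bacteria and fungi. The genes described here are the 85 members of 6 such families, chosen by name as every gene symbol that consists of lys, ilys, spp, abf, cnc or fipr, a hyphen and a number. They are 85 of the 41560 gene symbols listed in the data, and comprise 10 lys genes, 6 ilys genes, 23 spp genes, 6 abf genes, 11 cnc genes and 29 fipr genes. Each has 1 entry in the files, and all 85 are annotated as protein-coding. The naming rule itself uses no measured value, although the families were picked with earlier results of these data known.

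The values come from 2 RNA-seq libraries of sorted neurons that carry Pacr-2::gfp in a wild-type background, out of a study of 4 samples in which the 2 acr-2(gf) samples (strain CZ5808) were not analysed here. Wild type was the strain CZ631, which carries the transgene juIs14[Pacr-2::GFP] and no acr-2 mutation, and was collected as young adults 72 hr into synchronized growth at 20 °C. GFP-positive cells were sorted by FACS, at 80000 to 100000 cells per sample. The transgene drives GFP from the promoter of acr-2, a subunit of a neuronal acetylcholine receptor, and marks cholinergic motoneurons of the ventral cord (classes VA, VB, DA and DB) together with unidentified neurons in the head and tail, so the sorted cells are a mixture of neuron types. Both libraries are of a single condition, so no treatment or genotype is compared. The levels are given as FPKM (fragments per unit of transcript length and of library depth), a scale that divides by transcript length, with the 95% bounds that Cufflinks, the authors' quantification program, attached to each value. Those bounds describe counting and read assignment within a library, not variation between samples. Nothing in the labels says that the replicates were separate cultures, so the spread between them may be technical.

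The lys genes encode lysozymes of a type related to those of protists, and the ilys genes encode invertebrate-type lysozymes; both kinds of enzyme cut bacterial cell wall peptidoglycan. The spp genes encode saposin-like proteins, which include the caenopores, small pore-forming proteins that permeabilize bacterial membranes. These 3 families are known mainly from the intestine and are grouped below as the intestinal families, although individual members are made elsewhere. The cnc genes encode caenacins, glycine-rich peptides that the epidermis (hypodermis) makes on fungal infection and wounding, and the fipr genes are named for their relation to fungus-induced peptides. These are grouped as the epidermal families, with the reservation that little is known of where most fipr genes are used. The abf genes encode defensin-like antibacterial factors, which belong to neither group here.

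The 2 libraries differed in depth and in how low values were listed. The ratio of depths, library 2 over library 1, was 1.22 as read from the bounds of 40 low genes. Rows above 0 numbered 13107 in library 1 and 16792 in library 2. Fragment numbers quoted below are those that the bounds imply if each bound lies 2 standard errors of a fragment count from the value, and they are approximate. Among symbols, 684 had 1 to 20 implied fragments in library 1 and 3454 in library 2, so a value listed at 0 in library 1 is a weaker statement than in library 2. All 12 pan-neuronal and all 5 cholinergic marker genes were over 10 FPKM in both libraries, the highest being sbt-1 (4963 and 4464 FPKM in libraries 1 and 2), which acts in neuropeptide processing, and the synaptic vesicle gene snb-1 (2675 and 2806), and, of the cholinergic list, the acetylcholine transporter and synthesis genes unc-17 (395 and 573) and cha-1 (173 and 286). Markers of other tissues were present as well and are given beside the families of those tissues.

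A gene was counted as expressed where it was over 10 FPKM in both libraries, the limit the study used. Here 6839 gene symbols passed it, far more than the transcripts that the study listed as expressed. The set called expressed here is therefore not the study's own, and the reason for the difference was not examined. By that limit 34 of the 85 members were expressed, which is 40% of them, against a background of 16.5% of all gene symbols and 34% of protein-coding genes. The members are short genes, with annotated transcripts of 129 to 1373 bp and a median of 423 bp, and of the 1396 protein-coding genes whose transcripts are no longer than that median, 26.1% passed the same limit. A further 11 members were over 10 FPKM in library 1 alone and 3 in library 2 alone. That made 45 members over the limit in library 1 and 37 in library 2, against 7521 and 8301 of all gene symbols. Of the short protein-coding genes, 424 and 463 were over it. Listed at 0 in both libraries were 25 of the 85 members. The background was 24658 of 41560 gene symbols, 3747 of 19302 protein-coding genes and 598 of the 1396 short ones. The members together held 0.638% of the FPKM sum of library 1 and 0.650% of that of library 2. That sum was concentrated in a few genes, since the 4 highest members made up 63.9% of it and the 12 highest 87.0%.

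**Figure D1:**
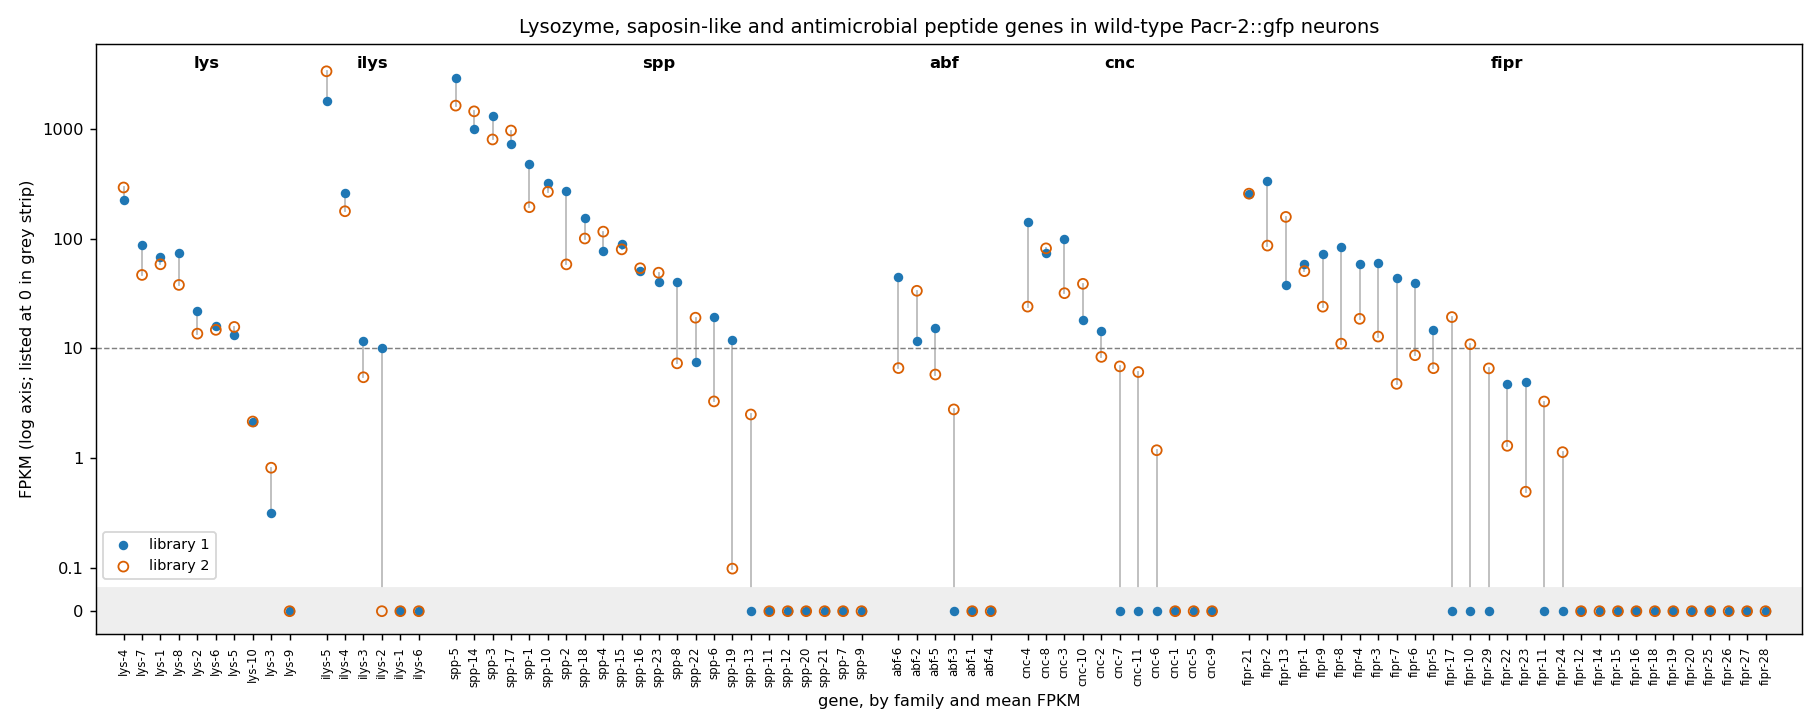
Level of each of the 85 members in FPKM (log axis) in library 1 (filled points) and library 2 (open circles), ordered by family and by mean; the dashed line is 10 FPKM and the grey strip holds values listed at 0. The highest points are ilys-5 and 4 spp genes, and every family has at least 1 member listed at 0 in both libraries.

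Of the 10 lys genes, 7 were expressed. The highest was lys-4, on chromosome IV (positions 11621473 to 11623075, minus strand, here and below in build ce10), at 228 FPKM in library 1 (95% bounds 220.0 to 235.2) and 294 FPKM in library 2 (286 to 302). Its mean was 261 ± 47.1 FPKM (SD, n = 2), and library 2 was the higher, with bounds that did not overlap. Next came a group of 3 genes that are best known from pathogen-defence studies of the intestine. lys-7 stood at 88.6 FPKM in library 1 and 46.8 in library 2, lys-1 at 68.0 and 58.6, and lys-8 at 73.6 and 37.97. All 3 were lower in library 2, and in each case the bounds were apart. The remaining expressed lysozymes lay just over the limit: lys-2 at 22.1 and 13.6 FPKM, lys-6 at about 16 and 14.8, and lys-5 at 13.4 and 15.7. Below the limit, lys-10 was at 2.11 and 2.15 FPKM and lys-3 at 0.318 and 0.815, and lys-9 was listed at 0 in both libraries. The family sum was 512 FPKM in library 1 and 485 in library 2, the smallest relative difference of the 6 families.

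On the FPKM scale most of the ilys signal lay in ilys-5. This gene, on chromosome X (positions 6533512 to 6536740, minus strand), had the highest mean of all 85 members, at 1829 FPKM in library 1 (bounds 1747 to 1911) and 3380.4 FPKM in library 2 (3236 to 3525), a mean of 2605 ± 1097 FPKM (SD, n = 2). Its FPKM and its bounds did not move together. The bounds imply about 2009 fragments in library 1 and 2188 in library 2, a number that grew less than the depth did while the FPKM grew 1.85-fold. Expressed as implied fragments per kilobase of its 1162 bp annotated transcript, scaled to a sum of 1000000 over all genes, ilys-5 had 98.0 in library 1 and 97.3 in library 2 and ranked 10 among the members. Its first place and its difference between the libraries hold on the FPKM scale and are not seen on that second scale. That scale needs bounds that follow a fragment count, and those of ilys-5 did not. Its implied fragments per FPKM changed 0.589-fold between the libraries, against a depth ratio of 1.22. In library 1 a fragment of ilys-5 was worth 0.910 FPKM, against 0.0277 for spp-8 with a transcript of 1298 bp. The second scale therefore cannot decide the level or rank of ilys-5. ilys-4, on chromosome IV (positions 7895706 to 7896975, minus strand), was at 264 FPKM (bounds 254 to 275) in library 1 and 179 (171 to 186) in library 2. Per kilobase of annotated transcript ilys-4 was above ilys-5, with a mean of 164 against 97.6 and rank 8 among the members, a comparison under the same limit. The other members did not pass the limit. ilys-3, an invertebrate lysozyme with a described role in digesting bacteria, was at 11.6 and 5.46 FPKM with bounds apart, ilys-2 was at 10.1 FPKM in library 1 and listed at 0 in library 2, and ilys-1 and ilys-6 were listed at 0 in both.

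Saposin-like genes made up the largest share of the signal, 64.7% of the members' FPKM in library 1 and 53.9% in library 2, and 12 of 23 were expressed. spp-5, which encodes caenopore-5, a pore-forming antibacterial protein of the intestine, was on chromosome X (positions 7319948 to 7320307, minus strand) and stood at 2914 FPKM in library 1 (bounds 2859 to 2969) and 1643 in library 2 (1606 to 1681). Its mean was 2279 ± 899 FPKM (SD, n = 2), and it was the highest member per kilobase of annotated transcript. spp-14, on X (positions 7725929 to 7726289, plus strand), followed at 997 FPKM (965 to 1028) and 1457 FPKM (1422 to 1492), and was higher in library 2. spp-3, which lies close to spp-5 on X (positions 7314959 to 7315303, minus strand), was at 1327 FPKM (1289 to 1365) and 807 (780.1 to 834), and was lower in library 2 like spp-5. spp-17, on chromosome I (positions 1016413 to 1017134, plus strand), was at 740.3 FPKM (713 to 767) and 974 (945 to 1002). These 4 spp genes and ilys-5 are the 5 members whose mean was above that of unc-17, the cholinergic marker with a mean of 484 ± 126 FPKM (SD, n = 2).

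A further 8 expressed saposin-like genes lay below these. spp-1, which encodes another caenopore of the intestine, on chromosome III (positions 10355048 to 10355423, minus strand), was at 477 FPKM (456 to 498) in library 1 and 194 (182 to 206) in library 2. spp-10, a larger gene with 11 exons and similarity to vertebrate prosaposin, on chromosome IV (positions 8477170 to 8480563, plus strand), was at 320.2 FPKM (305 to 336) and 269 (255 to 282). spp-2, on chromosome X (positions 7316051 to 7316697, minus strand), was at 274 FPKM (258 to 291) and 58.5 (51.5 to 65.4). All 3 were lower in library 2, by 2.45-fold for spp-1, 1.19-fold for spp-10 and 4.69-fold for spp-2, and spp-2 had the largest ratio between the libraries of any intestinal-family gene over the limit. Lower in the order were spp-18 at 153 and 101 FPKM, spp-4 at 77.02 and 116, and spp-15 at 89.8 and 80.1. spp-16 was at 50.6 and 53.9 FPKM and spp-23 at 40.6 and 49.1. Of these 5 genes, spp-15, spp-16 and spp-23 had overlapping bounds, spp-18 was lower in library 2 and spp-4 higher.

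Several saposin-like genes passed 10 FPKM in a single library. spp-8 was at 40.6 FPKM in library 1 and 7.31 in library 2, spp-6 at 19.3 and 3.28, and spp-19 at 11.9 and 0.0978. The spp-19 value in library 2 is that of about 1 fragment, against about 99.9 in library 1. spp-22 went the other way, from 7.48 FPKM in library 1 to 19.1 in library 2. Of the members under the limit and above 0 in both libraries, it alone had its bounds apart with the higher value in library 2. spp-13 was listed at 0 in library 1 and at 2.50 FPKM in library 2. At the bottom, 6 spp genes were listed at 0 in both libraries: spp-7, spp-9, spp-11, spp-12, spp-20 and spp-21.

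The caenacins were lower and fewer. Of 11 cnc genes, 4 were expressed. cnc-4, on chromosome V (positions 1447265 to 1447543, plus strand), was at 143 FPKM in library 1 (bounds 119.1 to 166) and 24.1 in library 2 (15.3 to 32.9), a mean of 83.4 ± 83.9 FPKM (SD, n = 2) whose SD was as large as the mean. It was 5.93-fold lower in library 2. cnc-8 was at 74.99 and 81.9 FPKM with overlapping bounds, and cnc-3 at 99.8 and 31.9. cnc-10, on chromosome V (positions 11183221 to 11183538, plus strand), was at 18.03 FPKM (12.8 to 23.3) and 38.8 (31.9 to 45.8), so that it was 2.15-fold higher in library 2. cnc-2, a caenacin known in the epidermis as a target of the neuronal TGF-beta ligand DBL-1, was over the limit in library 1 alone, at 14.6 FPKM against 8.37 in library 2. cnc-6, cnc-7 and cnc-11 were listed at 0 in library 1 and lay between 1.18 and 6.86 FPKM in library 2, and cnc-1, cnc-5 and cnc-9 were listed at 0 in both.

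The fipr family was the largest and the least expressed of the intestinal and epidermal families, with 8 of 29 genes over the limit and 11 listed at 0 in both libraries. fipr-21, a gene of 1 exon on chromosome X (positions 10304469 to 10304807, plus strand), was its highest member, at 255 FPKM (bounds 241 to 269.6) in library 1 and 258 (245 to 272) in library 2. Its mean of 257 ± 2.39 FPKM (SD, n = 2) made it the steadiest of the 12 highest members. fipr-2, on chromosome V (positions 12365436 to 12365807, plus strand), was at 339 FPKM (308 to 370.3) in library 1 and 86.8 (73.2 to 100.3) in library 2. fipr-13, on chromosome V (positions 10064550 to 10064834, plus strand), moved the opposite way, from 37.6 FPKM (28.2 to 47.0) to 159 (141 to 176), the largest ratio in favour of library 2 among the expressed members, at 4.21-fold. The opposite extreme was fipr-8, on chromosome V (positions 10239621 to 10239889, minus strand), at 83.4 FPKM (68.1 to 98.6) and 11.05 (5.94 to 16.2), a 7.55-fold difference. fipr-3, on chromosome X (positions 14423380 to 14423742, plus strand), was 4.71-fold lower in library 2, at 60.4 FPKM (52.3 to 68.5) against 12.8 (9.44 to 16.2). The other expressed members were fipr-1 at 59.2 and 50.7 FPKM, fipr-9 at 72.6 and 24.0, and fipr-4 at 59.0 and 18.6.

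Under the limit, fipr-7 was at 44.0 FPKM in library 1 and 4.75 in library 2, fipr-6 at 39.5 and 8.67, and fipr-5 at 14.8 and 6.601, each with bounds apart. These 3 genes lie with fipr-4, fipr-8 and fipr-9 in 18879 bp of chromosome V. The 6 genes summed to 313 FPKM in library 1 and 73.7 in library 2, and every one of them was lower in library 2. Whether reads were shared between these neighbouring copies was not tested, so the split within the group is uncertain. fipr-22 was at 4.72 and 1.29 FPKM and fipr-23 at 4.95 and 0.492, again lower in library 2 with bounds apart. Listed at 0 in library 1 only were fipr-10, fipr-11, fipr-17, fipr-24 and fipr-29, whose values in library 2 ran from 1.13 FPKM for fipr-24 to 19.3 FPKM for fipr-17. The fipr-17 value corresponds to about 7.00 fragments on a transcript of 144 bp, so that 1 fragment was worth 2.76 FPKM.

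Among the 6 defensin-like abf genes, only abf-2 was expressed. abf-2, whose product has antibacterial activity in vitro and is known from the pharynx, is a gene of 1 exon on chromosome I (positions 3885634 to 3885891, minus strand), at 11.6 FPKM (7.14 to 16.1) in library 1 and 33.6 (26.7 to 40.5) in library 2. It was 2.89-fold higher in library 2. abf-6 had the highest mean of any member under the limit, at 44.8 FPKM in library 1 and 6.61 in library 2, and its neighbour abf-5 was at 15.4 and 5.78. Both were lower in library 2 with bounds apart. abf-3 was listed at 0 in library 1 and at 2.77 FPKM in library 2, and abf-1 and abf-4 were listed at 0 in both. Of 7 pharynx marker genes measured, 3 were over the limit, led by phat-3 (56.7 and 44.1 FPKM) and pha-4 (10.4 and 33.2), while phat-1 was listed at 0 in both libraries. The part of pharyngeal cells in the abf-2 value was not tested.

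The intestinal families were more often expressed and higher than the epidermal families. Of 39 intestinal-family genes 21 passed the limit (53.8%), against 12 of 40 epidermal-family genes (30%), beside backgrounds of 34% for protein-coding genes and 26.1% for those no longer than the members' median transcript. The background for short genes lies below both shares. The median over all intestinal-family genes was 22.1 FPKM in library 1 and 15.7 in library 2, and that over epidermal-family genes was 0 and 5.42 FPKM. Summed, the intestinal families reached 10167 and 9884 FPKM and the epidermal families 1424 and 883, a ratio of 7.14 in library 1 and 11.2 in library 2. At the top of the range the difference was wider, with 10 intestinal-family genes and 1 epidermal-family gene, fipr-21, over 100 FPKM in both libraries. The share of all genes or of short genes over 100 FPKM was not computed, so these 2 counts have no background. Genes are not replicates, so no test was made between the groups, and both libraries show the same order.

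Among expressed genes alone the gap depended on the scale. The median mean level was 127 FPKM for the 21 expressed intestinal-family genes and 60.4 FPKM for the 12 expressed epidermal-family genes, a ratio of 2.10. On the scale of implied fragments per kilobase of annotated transcript the medians were 79.4 and 15.4, a ratio of 5.16. The scales differ in what 1 fragment was worth, a median of 0.538 FPKM in library 2 for the fipr genes above 0 there, against 0.0363 FPKM for the lys genes, while the median annotated transcript was 322 bp for fipr and 845 bp for lys. For lys-7 a fragment in library 2 was worth 0.0357 FPKM. A limit of 10 FPKM therefore asks for far fewer fragments of a fipr gene than of a lysozyme gene, and low values of the small peptide genes rest on few reads.

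**Figure D2:**
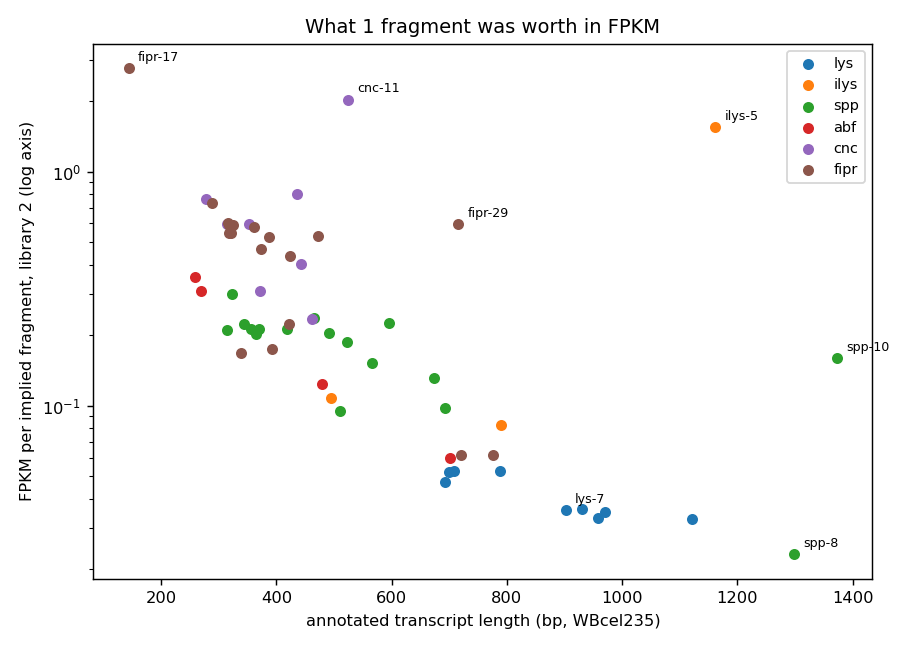
FPKM that 1 implied fragment was worth in library 2 (log axis) against annotated transcript length in bp, for members above 0 in that library, colored by family. The worth of a fragment falls from 2.76 FPKM for fipr-17 to 0.0231 for spp-8, and ilys-5, cnc-11, fipr-29 and spp-10 lie above the trend of genes of their plotted length. For cnc-11 and fipr-29 that length (525 and 716 bp) exceeds the whole gene span in build ce10 (207 and 268 bp), so it is not the length that Cufflinks used.

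Values for markers of the tissues that the families are named after were measured in the same libraries. Of 12 intestine markers, 6 were over 10 FPKM, led by the metallothionein gene mtl-2 (1767 and 1004 FPKM) and the protease gene asp-1 (1726 and 741). The defining intestinal genes elt-2, a GATA factor, and ges-1, a gut esterase, were low, at 1.68 and 5.36 FPKM and 1.46 and 0.863 FPKM. Of 12 hypodermis markers, 7 were over the limit, led by the collagen genes col-140 (4857 and 5608 FPKM) and col-119 (5422 and 5030.2), whereas the collagen genes dpy-7 and bli-1 were at 0.296 and 3.13 FPKM and at 0 and 0.173 FPKM. Of 4 coelomocyte markers, 1 passed the limit, cup-5 at 11.1 and 12.05 FPKM, and cup-4 followed at 6.58 and 13.9. The part of RNA from other tissues in the levels of the families was not tested. In bulk samples such as these, fewer cells of a type and less RNA per cell cannot be told apart.

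The 2 libraries were then compared with each other, to show how closely a level of these genes was repeated. Of the 34 expressed members, 21 (61.8%) were lower in library 2 and 13 higher. Of all expressed genes 41.7% were lower in library 2, and of expressed protein-coding genes no longer than the members' median transcript 64.4%. The bounds were apart with library 2 lower for 18 of the members, against a background of 30.1% of all 6839 expressed genes, and apart with library 2 higher for 8, against a background of 45.6%, and they overlapped for 8. The same shares over the short protein-coding genes were 49.0% and 21.6%. In 14 of the expressed members the 2 values were within 1.5-fold of each other, a share that was not computed for all expressed genes. The implied fragments per FPKM changed between the libraries as the depth did, within 10%, for 45 of the 49 members above 0 in both libraries, the exceptions being ilys-5, fipr-2, spp-18 and fipr-7. Log2 ratios were taken on FPKM + 1 and centred on the median taken over every expressed gene, which was 0.12 before centring. The median log2 ratio over expressed members was -0.36. Short genes as a class lay on the same side, with a median of -0.39 over the 365 expressed protein-coding genes no longer than the members' median transcript, so the median of the members is close to that of genes of their size. Ribosomal protein genes, a further class of short genes, were lower in library 2 in 74 of 75 expressed cases, with a median log2 ratio of -0.56, and the part of library quality in these differences was not tested.

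The epidermal families departed further than the intestinal ones. The median log2 ratio was -0.33 over expressed intestinal-family genes and -1.71 over expressed epidermal-family genes, with -0.33 for lys, -0.33 for spp, -0.87 for cnc and -1.71 for fipr. Over all epidermal-family genes above 0 in at least 1 library, which adds genes listed at 0 in library 1, the median was -0.60. An FPKM ratio over 3-fold in either direction was seen in 8 of 12 expressed epidermal-family genes and 1 of 21 expressed intestinal-family genes, which was spp-2. The share in either direction was 4.49% of all expressed genes and 18.6% of the short protein-coding ones. Of the 9 members over 3-fold all but fipr-13 were lower in library 2. More than 3-fold lower in library 2 were 2.91% of all expressed genes and, of the short protein-coding ones, 16.2%. Among members above 0 in both libraries, a further 12 that missed the limit had their bounds apart, and 11 of these were lower in library 2. Bounds were not compared for the 10 members listed at 0 in library 1 alone, or for ilys-2, listed at 0 in library 2. The lean towards lower values in library 2 therefore holds for the compared members only.

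Marker lists moved in part with these differences. The 6 expressed intestine markers were all lower in library 2, with a median log2 ratio of -1.14, and the 12 summed to 5304 FPKM in library 1 and 2704 in library 2. Of the markers under the limit, elt-2, elt-7 (4.11 and 13.2 FPKM) and pho-1 (1.61 and 3.37 FPKM) were higher in library 2. The others under the limit, ftn-1, ges-1 and pept-1, were lower in library 2. The 3 intestinal families together were nearly level, at 10167 and 9884 FPKM, a sum in which rises and falls offset each other. Within them the lys and spp genes went from 8052 to 6319 FPKM, lower in library 2 like the marker sum. The ilys genes went from 2115 to 3564 FPKM, of which ilys-5 alone was 1829 and 3380. Of the 21 expressed genes of these families 13 were lower in library 2 and 8 higher. The hypodermis markers summed to 12597 and 13428 FPKM, nearly all of it in the collagen genes col-19 (2214 and 2652 FPKM), col-119 and col-140. Their median log2 ratio was 0.14 over the expressed ones, and those under the limit were all higher in library 2. They did not follow the epidermal families, whose sum in library 2 was 0.620 times that in library 1. The pan-neuronal markers had a median log2 ratio of 0.35. The part of intestinal cell content in the family levels was not tested.

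**Figure D3:**
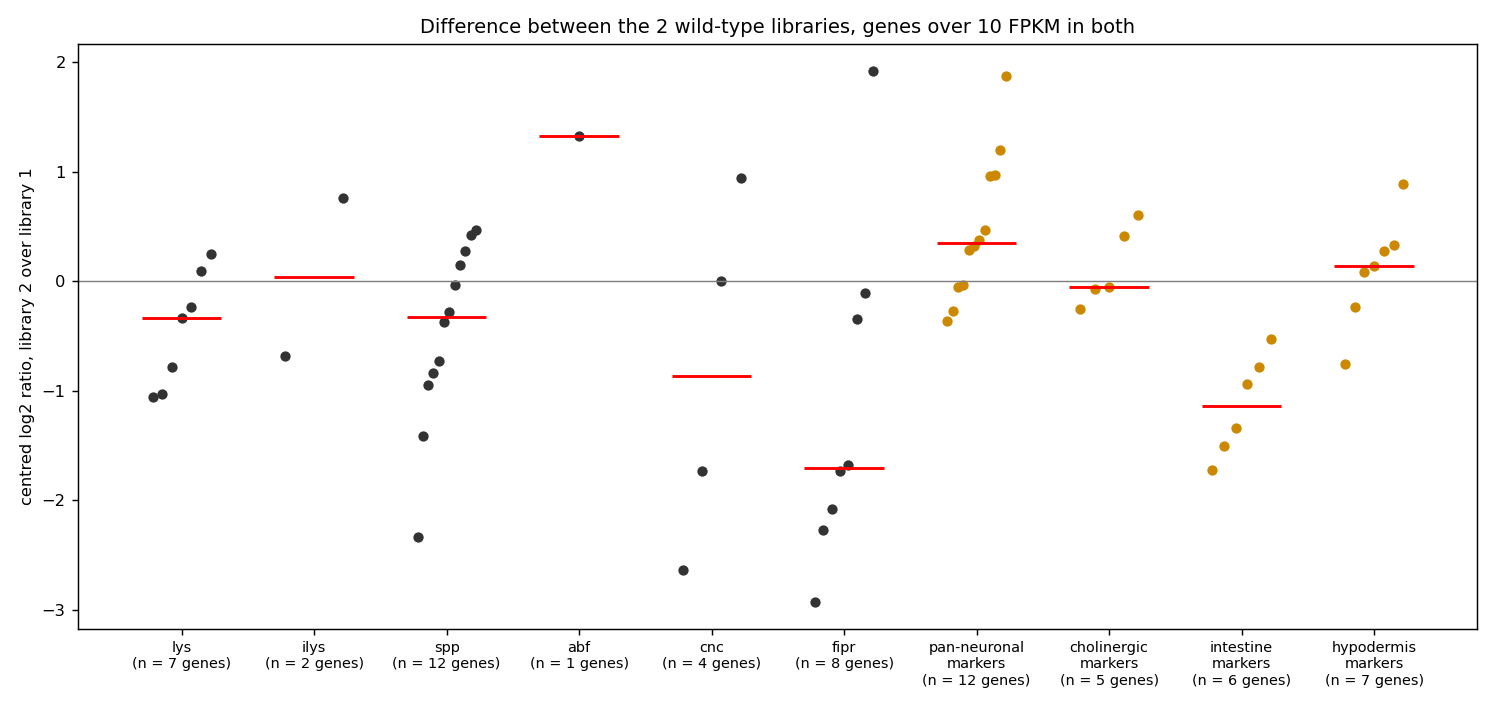
Log2 ratio of library 2 to library 1 (FPKM + 1, centred on the median of all genes over 10 FPKM in both libraries) for each expressed member by family, in black, and for expressed marker genes, in orange; red lines are medians. The fipr median lies at -1.71 and the intestine markers at -1.14, while the hypodermis markers lie at 0.14.

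**Figure D4:**
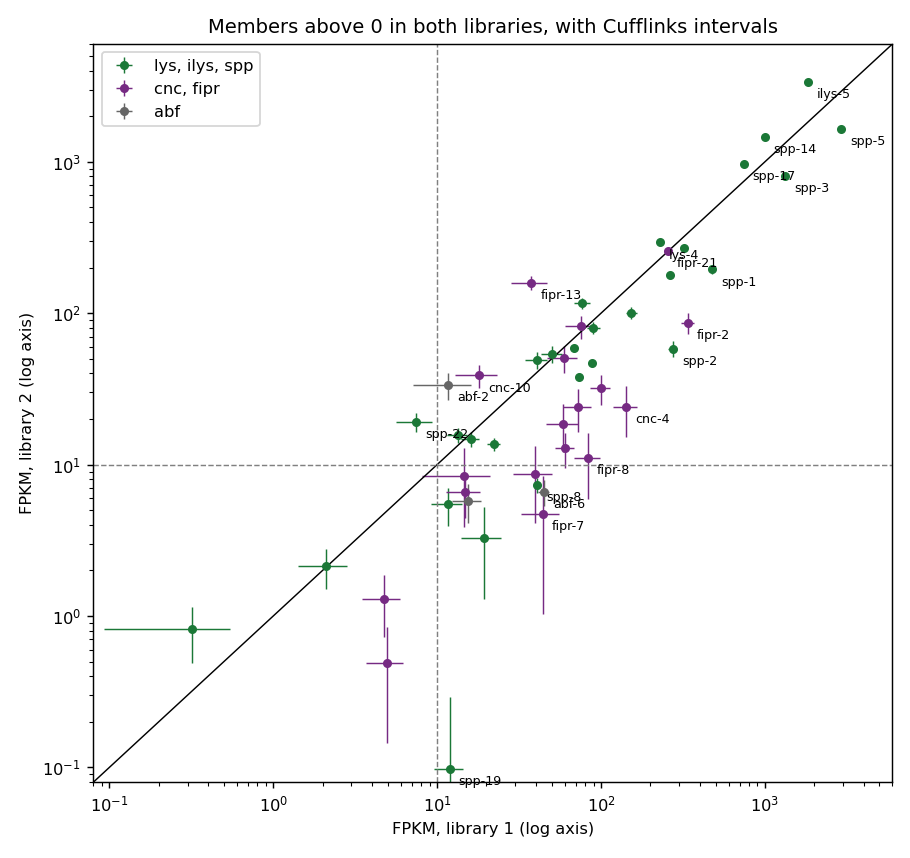
FPKM in library 2 against library 1 (both axes log) for the 49 members above 0 in both libraries, with the 95% Cufflinks bounds as bars, the line of equal values and dashed lines at 10 FPKM. The spp, lys and ilys genes over 100 FPKM in both libraries lie within 1.85-fold of the diagonal except spp-1, and a group of fipr and cnc genes lies below it.

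With both libraries in view, the order of the expressed members is coarse. Over the 33 pairs of neighbours in the order of means, the values of the 2 genes overlapped between libraries for 31. The exceptions were the steps from spp-5 to spp-14 and from spp-17 to spp-1, at which every value of the higher gene was above every value of the lower. ilys-5 and spp-5, first and second by mean, are thus not separated by these libraries, and their order was opposite in library 1 and library 2.

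Many members lie beside a relative, and such neighbours often had unlike levels. With a gap of at most 10000 bp between genes as the limit, 54 members fell into 19 groups. The group with the widest range held spp-3, spp-2, spp-6, spp-4 and spp-5 within 5349 bp of chromosome X (positions 7314959 to 7320307), where means ran from 11.3 FPKM for spp-6 to 2279 FPKM for spp-5, a 202-fold range. The outer genes of this group, spp-3 and spp-5, were the high ones in both libraries. The 3 lysozyme genes lys-1, lys-2 and lys-3 on chromosome V (positions 10277883 to 10283419) spanned a 112-fold range of means, with lys-3 lowest, and lys-4, lys-5 and lys-6 on chromosome IV (positions 11621473 to 11627912) a 17.9-fold range, with lys-4 highest. In the row of 6 caenacin genes on chromosome V (positions 1442625 to 1450174), cnc-4 and cnc-3 were expressed while cnc-1 and cnc-5, next in the row, were listed at 0 in both libraries. The 6 fipr genes of chromosome V were the most even of the larger groups, within 4.51-fold of each other by mean. Smaller groups showed the same variety. spp-17 and spp-23 differed 19.1-fold by mean, spp-10 and spp-8 12.3-fold, and fipr-21 and cnc-8, an epidermal-family pair on X, 3.27-fold. Groups listed at 0 throughout were spp-9 with spp-21, fipr-14 with fipr-15, fipr-27 with fipr-28, and fipr-18 with fipr-19 and fipr-20. Chromosome X carried 16 of the 85 members, 9 of the 34 expressed ones and 6 of the 12 highest. These 6 include spp-2, spp-3 and spp-5 of the same group, and the share of all genes on chromosome X was not computed.

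**Figure D5:**
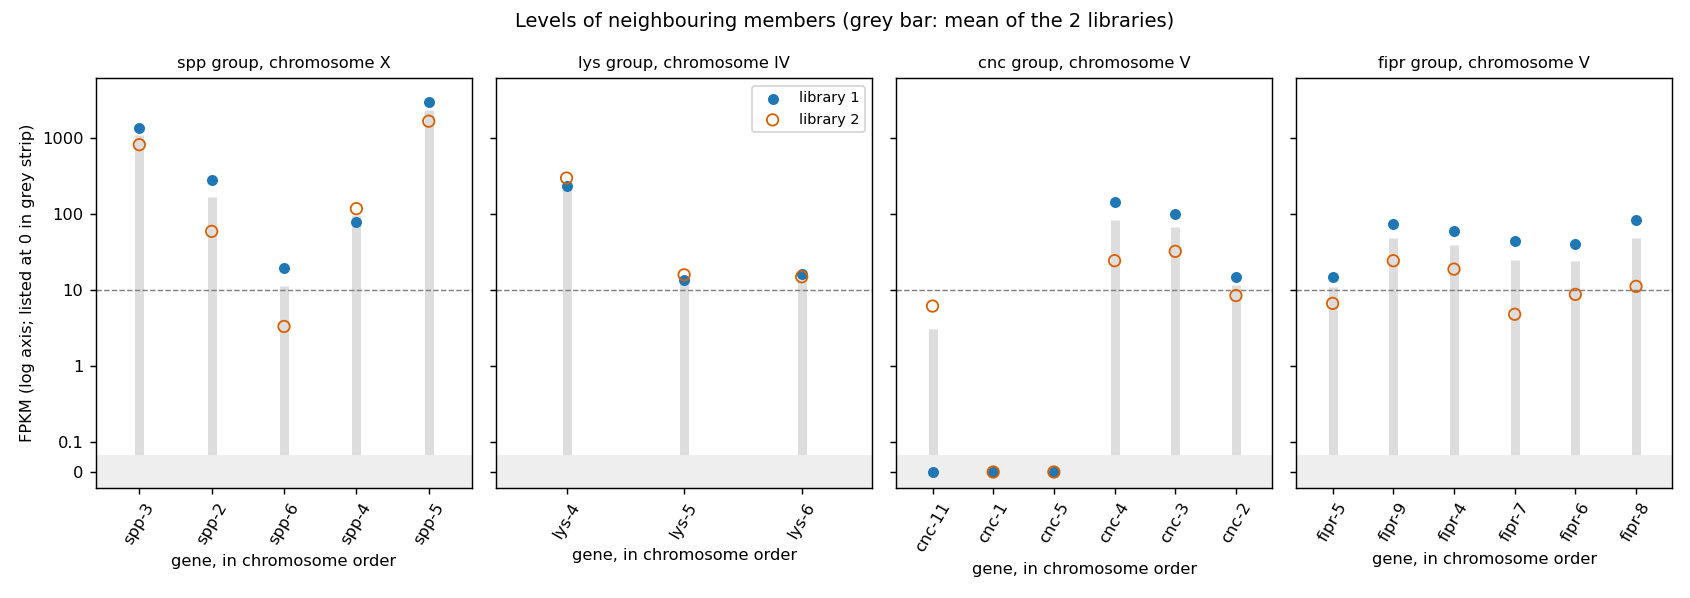
FPKM (log axis) of 4 groups of neighbouring members in chromosome order, in library 1 (filled points) and library 2 (open circles), with grey bars to the mean, a dashed line at 10 FPKM and a grey strip for values listed at 0. The spp group runs from 11.3 to 2279 FPKM by mean, the lys group from 14.5 to 261 and the fipr group from 10.7 to 48.3.

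A total of 10 members were listed at 0 in library 1 alone and 1, ilys-2, in library 2 alone. The 10 had between 2.60 and 20.0 implied fragments in library 2, and none exceeded 19.3 FPKM there. Only 1 member above 0 had under 20 implied fragments in library 1, lys-3 with 8.00, against 16 in library 2. Values of 0 in library 1 were therefore treated as listed values and no fold was taken against them, apart from the log2 ratios on FPKM + 1 that enter the median of -0.60 given above. For ilys-2 the case is different, since the library 1 value corresponds to about 76.0 fragments.

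Genes that regulate these families in their usual tissues were read from the same libraries, beside a background of 34% of protein-coding genes over the limit. A list of 7 genes was chosen around the p38 MAP kinase cascade, which controls defence genes in the intestine and the epidermis. It held tir-1, nsy-1, sek-1, pmk-1, vhp-1, atf-7 and skn-1, and is not limited to kinases. All 7 were expressed, the highest being the transcription factor gene atf-7 (130.1 and 170.5 FPKM) and the kinase gene sek-1 (76.2 and 69.1). Of 11 genes known to regulate epidermal peptides, 7 were expressed, led by rack-1 (2428 and 1545 FPKM), which encodes a ribosome-associated scaffold, and by the bZIP gene cebp-1 (164 and 242). The others were low in both libraries, namely snf-12 (0.632 and 0.224 FPKM), sta-2 (4.40 and 4.33), gpa-12 (2.55 and 3.26) and plc-3 (1.28 and 4.16). The signal from neurons to the epidermis that raises caenacins is the ligand DBL-1, and dbl-1 was at 103 and 107 FPKM. The type II receptor gene daf-4 was at 22.6 and 29.2, and 3 of the 7 genes of that pathway were expressed. Those that were not were sma-6 (1.08 and 0.831 FPKM), sma-2 (0 and 2.94), sma-3 (1.08 and 2.83) and sma-4 (5.16 and 10.3). Among 9 intestinal transcription and defence regulators, 6 were expressed, led by zip-2 (1091 and 1334 FPKM) and hlh-30 (157 and 121), a TFEB homolog. The GATA factor gene elt-2 (1.68 and 5.36 FPKM), elt-7 (4.11 and 13.2) and fshr-1 (0.313 and 0.239) were not. No relation between regulators and family genes was computed.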

How the data were processed

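RNA was sequenced from FACS-sorted wild-type neurons on an Illumina HiSeq4000 after TruSeq preparation. The authors mapped single-end reads with TopHat and deposited FPKM per gene, with confidence bounds, as Cufflinks computed them for each library; both versions and the annotation were not given in the sources used here. The build, ce10, is from the submitters' processing notes. Depth was not stated per library, and only the relative depth was read from the bounds. The columns name no replicate, so the libraries are numbered as the authors numbered their outputs, and the condition follows the series design text. The upper bounds were used as the authors' values.

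Members, families and lists were chosen with earlier results of these data known. The highest row was taken for a symbol with several rows, 11 symbols that a spreadsheet had turned into dates took their names from library 2, and 42518 rows gave 41560 symbols. Every member over 10 FPKM in both libraries was named, and below it the highest and any with bounds apart; bounds and positions were given for the 12 members with the highest mean and the 3 with the largest ratio in each direction, and of each marker or regulator list the 2 highest genes and any at 0 in both, with other genes where a sentence turns on them (chosen after their values were seen). Ratios used a pseudocount of 1 FPKM, and bounds were compared only for genes above 0 in both libraries. Gene type, strand, exons and transcript length came from the WBcel235 annotation, whose coordinates were not mixed with those of the files. Starts were raised by 1 to count from 1. Alternatives were other limits, scales and left-out libraries; a protein-coding background and implied fragments per kilobase of transcript were added after seeing the data. With a single condition no test was made. The calculations were tested on simulated data. The simulated bounds were built from fragment counts by the formula used to read them, so the test checks the code. It cannot show that the real bounds follow fragment counts. Python 3.11.15, numpy 2.4.6, pandas 2.3.3 and matplotlib 3.10.9 were used. Protein and promoter features were not analysed here.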

Additional observations from a re-analysis of the deposited data

How the results depend on the processing

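No paired analysis was possible because both libraries belong to 1 group. The number of expressed members was 46 with a limit of 1 FPKM, 26 with a limit of 20 FPKM and 27 on the TPM scale, against 34 in the main setting. With library 1 or library 2 alone the counts ran from 37 to 45 for all members, from 22 to 26 for the intestinal families and from 14 to 16 for the epidermal families, and the family medians from 15.7 to 22.1 FPKM and from 0 to 5.42 FPKM. The median of the intestinal families was 10.2 on the TPM scale and 24.0 FPKM without ilys, against 17.9 FPKM, and cnc alone had 4 expressed genes of the 12 of the epidermal families. Per kilobase of annotated transcript the direction between the libraries turned for 2 of the 34 expressed members, ilys-5 (98.0 in library 1 and 97.3 in library 2) and lys-6 (19.49 and 20.40). The ilys-5 values on that scale rest on bounds that did not follow a fragment count. The other alternatives turned no direction of a median log2 ratio. Of 34 named members, the mean moved by more than its spread for 19 on the TPM scale and for 23 on the scale of implied fragments per kilobase of annotated transcript; these are other units. Dividing by the median ratio between the libraries gave 19 members lower in library 2 with bounds apart and 8 higher, against 18 and 8, while the background became 36.9% lower and 37.7% higher. With 2 libraries of 1 condition, spread between animals, cultures and sorts could not be separated.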
